A study of Mus musculus with 4 samples.

Results

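Keratins are the intermediate filament proteins of epithelial cells. A filament forms only when an acidic type I chain pairs with a basic type II chain, so the genes are read in pairs: Krt8 with Krt18 in simple epithelia, Krt5 with Krt14 in the basal layer of stratified epithelia, Krt1 with Krt10 above it, and a large set in hair and its root sheath. Mesothelium and lung epithelium both make simple keratins, and pathologists stain for keratins in mesothelioma and in lung carcinoma. The genes were taken as all those whose symbol is Krt followed by a number and, at most, 1 letter, which leaves out keratin-associated proteins. The gene table holds 54 such genes, and 53 of them were on the array, with 64 probes, among 20140 named genes; Krt83 was matched by no probe.

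The signals come from 2 mouse tumor cell lines measured on 4 single-colour Agilent arrays, 1 array per group. AB1-HA cells are from a mesothelioma (strain BALB/c) and LLC cells, also called 3LL, from a lung carcinoma (strain C57BL6); each was cultured for 24 h with vehicle or with IFN-γ, a cytokine of activated lymphocytes. The dose of IFN-γ, the number of cultures behind each RNA and whether the lines were cloned are not given in the sources used here. With 1 array per group there is no replicate check, no test was run, and line and mouse strain cannot be told apart.

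A difference below is that of log2 processed signals, each set relative to the 75th percentile of its own array, and it was called at 2-fold, a size and not a significance. A probe was well above background on an array where the scanner software marked it so. Where only 1 of the 2 arrays compared passed that mark, the difference is a bound for the processing used, written as at least N-fold. Where neither passed there is none. The error given with a difference, as ±, is the scanner software's own error for the 2 spots combined, since each keratin probe had 1 spot per array; it covers the spot, not the culture. Among 231 other probes spotted at least 5 times, the median SD of a difference was 0.04 to 0.06 on the log2 scale. Signals of different probes cannot be set against each other, so each gene is compared only with itself.

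The arrays were alike in quality: their 75th percentiles were 1380 to 1598 intensity units, 57.5% to 58.2% of probes were well above background, and the lowest signal so marked was 7.01 to 8.26. The lines were checked against markers. Of 9 mesothelial genes on the array, 3 were well above background on at least 1 array: Msln (mesothelin) at 50299 in AB1-HA and 154 in LLC under vehicle, Pdpn at 8991 and 6.48, and Bnc1 at 1.95 and 1997, while Wt1, Calb2 and Upk3b were dim on every array. Of 6 epithelial adhesion genes, Cldn7 alone passed, at 55.1 to 76.2, and Epcam and Cdh1 lay between 1.76 and 1.98. All 9 mesenchymal genes passed on at least 1 array, but not at like signals. Under vehicle, 4 were at least 2-fold lower in LLC and 1 higher, where 16.0% and 16.4% of all genes were. Col1a2 had 62880 in AB1-HA and 17.5 in LLC, and Acta2, the higher one, 79.5 and 1273. Of the leukocyte genes Cd3e and Itgam passed, at like signals in both lines, while Ptprc and Adgre1 did not. Since RNA was taken from whole cultures, fewer cells of a kind and less RNA per cell cannot be told apart.

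The promoters of 4 genes are shown as examples. They belong to 2 pairs of neighbouring genes whose members differed in the same direction: Krt8 and Krt18, which were higher in LLC, and Krt12 and Krt20, which were higher in AB1-HA. Other neighbours did so too and are not shown. Under vehicle, Krt15 and Krt19 were both higher in AB1-HA, as were Krt73 and Krt2. Each sequence is the 250 bases before the start of transcription, 5′ to 3′ on the gene's own strand, from RefSeq on GRCm38.p6. Capitals mark a TATA motif (TATAAA) found by search; where there are none, no motif searched was found.
Krt8, chr15:102004343-102004592, minus strand: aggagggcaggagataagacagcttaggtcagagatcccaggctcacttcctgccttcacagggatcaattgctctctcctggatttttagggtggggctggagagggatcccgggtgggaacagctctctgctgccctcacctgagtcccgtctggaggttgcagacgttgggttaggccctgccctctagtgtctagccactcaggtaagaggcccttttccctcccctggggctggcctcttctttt
Krt18, chr15:102027966-102028215, plus strand: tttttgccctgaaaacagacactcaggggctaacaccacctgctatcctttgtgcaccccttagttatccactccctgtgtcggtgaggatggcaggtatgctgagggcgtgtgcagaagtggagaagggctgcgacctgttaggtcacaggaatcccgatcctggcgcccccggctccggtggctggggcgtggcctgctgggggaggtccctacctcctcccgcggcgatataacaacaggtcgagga
Krt12, chr11:99422260-99422509, minus strand: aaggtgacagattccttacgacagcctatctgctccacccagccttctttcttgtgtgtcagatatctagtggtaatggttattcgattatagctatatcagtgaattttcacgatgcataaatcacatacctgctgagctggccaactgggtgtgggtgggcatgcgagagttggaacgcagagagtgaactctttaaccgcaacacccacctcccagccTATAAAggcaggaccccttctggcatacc
Krt20, chr11:99438154-99438403, minus strand: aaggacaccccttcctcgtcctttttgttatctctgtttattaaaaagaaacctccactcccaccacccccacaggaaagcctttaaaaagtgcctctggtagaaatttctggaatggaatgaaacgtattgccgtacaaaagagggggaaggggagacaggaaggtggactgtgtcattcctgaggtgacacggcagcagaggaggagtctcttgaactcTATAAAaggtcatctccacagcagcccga

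The promoters of Krt12 and Krt20 each held TATAAA at 29 to 24 bases before the start. Those of Krt8 and Krt18 did not hold these exact letters, and near matches were not searched. Base composition also differed between the pairs, with 58.0% and 60.4% G or C for Krt8 and Krt18 and 48.4% and 48.0% for Krt12 and Krt20. On both strands, as for TATAAA, 4 further motifs were searched: the GAS element (TTCNNNGAA), an IRF element (GAAANNGAA), the AP-1 element (TGANTCA) and the GC box (GGGCGG). None was found in these 4 windows, which says only that these letters are not in them. Over the 37 promoters of the 36 keratin genes in the table, TATAAA was found in 17 (45.9%) against 12.4% of all 32851 promoters, and the GC box in 2 (5.41%) against 32.7%. The GAS motif was in 4 keratin promoters (10.8%, against 7.02% of all), the IRF motif in 2 (5.41%, against 7.13%) and the AP-1 motif in 2 (5.41%, against 6.75%). Overlap between motifs was not removed, and a match is a description of the letters, not a binding site.

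Most keratins were not measurable in either tumor line. Under vehicle, 25 of 53 keratins (47.2%) were well above background in AB1-HA and 20 (37.7%) in LLC, and under IFN-γ 22 (41.5%) and 19 (35.8%), where 64.1% to 65.5% of all named genes passed on each array. On all 4 arrays, 17 keratins (32.1%) passed, against 59.5% of all named genes, and 28 (52.8%) passed on none, against 29.5%. Of the keratins, 3 (5.66%) passed on both AB1-HA arrays and on neither LLC array, namely Krt12, Krt15 and Krt20, where 2.34% of all named genes did so; 0 keratins did the reverse, where 3.47% of all named genes did.

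The 28 keratins that passed on no array had signals from 1.54 to 9.50, with a median of 2.02. They include the epidermal Krt1 (partner of Krt10) and Krt77, the mucosal Krt4 (partner of Krt13) and Krt76, the wound keratins Krt6a and Krt17, Krt23 and Krt24. Most of the hair and root sheath genes are here too: Krt25, Krt26, Krt27, Krt28, Krt33a, Krt33b, Krt34, Krt35, Krt39, Krt40, Krt71, Krt72, Krt74, Krt75, Krt82, Krt84 and Krt87. Krt78, Krt88 and Krt90 complete the list. By class, 5 of 6 simple epithelial keratins passed on at least 1 array, all 3 basal, 3 of 5 suprabasal, 2 of 5 mucosal and corneal, 2 of 4 stress and wound, 8 of 25 hair, root sheath and nail, and 2 of 5 others. Several classes therefore had a measurable chain whose usual partner was dim, such as Krt10 without Krt1 and Krt13 without Krt4.

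**Figure D1:**
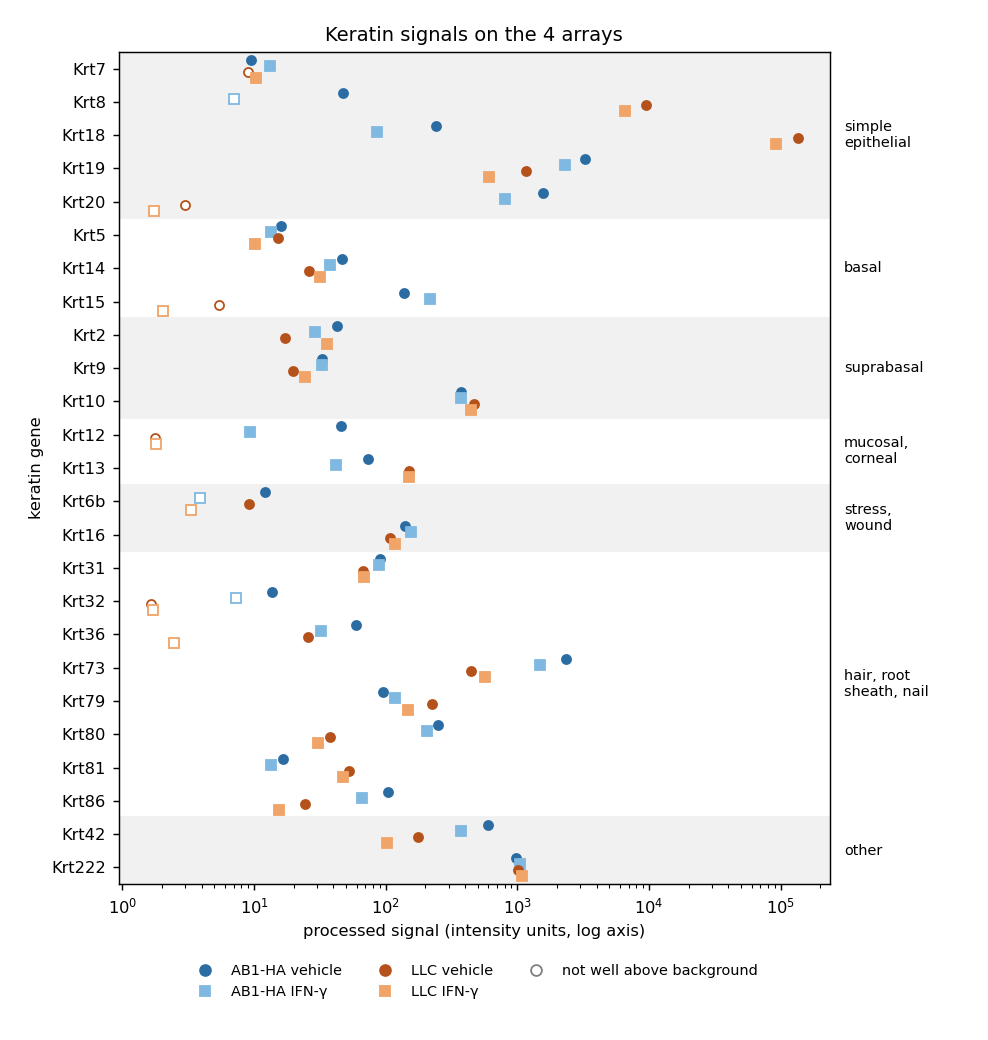
Processed signal (intensity units, log axis) of the 25 keratin genes well above background on at least 1 of the 4 arrays, grouped by class; each point is 1 array, and open points are not well above background. Krt8 and Krt18 lie far to the right in both LLC cultures (9469 and 134098 under vehicle), and Krt20 and Krt15 are filled in AB1-HA only.

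Between the lines under vehicle, LLC had far more Krt8 and Krt18, the filament pair of simple epithelia, and AB1-HA had more of most other measurable keratins. Values were obtained for 25 keratins, and 4 of them (Krt8, Krt18, Krt79 and Krt81) were 2-fold or more higher in LLC, where 16.4% of all 13836 named genes with a value were, and 12 were at least 2-fold lower, where 16.0% of all genes were. The 12 were Krt2, Krt12, Krt14, Krt15, Krt19, Krt20, Krt32, Krt36, Krt42, Krt73, Krt80 and Krt86. The median keratin difference was −0.94 on the log2 scale and that of all genes −0.05; over the 20 keratins measured in both lines it was −0.62. A keratin that passes in 1 line alone had to differ, and that applies to the 5 bounds here. Under IFN-γ, 4 keratins of 23 were at least 2-fold higher in LLC (Krt8, Krt13, Krt18 and Krt81; 15.4% of all genes) and 8 were lower (Krt15, Krt19, Krt20, Krt36, Krt42, Krt73, Krt80 and Krt86; 13.3% of all genes), with a median of −0.36 against 0.03 over all genes. The comparisons under vehicle and under IFN-γ use different arrays of the same lines.

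Krt18, the type I chain of the simple pair, had signals of 239 in AB1-HA under vehicle, 85.9 in AB1-HA under IFN-γ, 134098 in LLC under vehicle and 92309.6 in LLC under IFN-γ. Both LLC signals were above both AB1-HA signals by more than 2 orders of magnitude on a log10 scale. The difference between lines was 485-fold under vehicle (8.92 ± 0.20, log2) and 10.09 ± 0.21 on the log2 scale under IFN-γ. Krt8, its type II partner and direct neighbour on chromosome 15, had 47.5 and 7.0 in AB1-HA (vehicle, then IFN-γ) and 9469 and 6532 in LLC. The AB1-HA signal under IFN-γ was not well above background. The difference was 172-fold under vehicle (7.43 ± 0.22, log2) and at least 879-fold under IFN-γ. Across the alternative settings tried, the vehicle difference ranged from 8.28 to 9.03 for Krt18 and from 5.55 to 7.53 for Krt8. Under IFN-γ it ranged from 8.685 to 10.09 for Krt18 and from 5.89 to 9.88 for Krt8, so both genes stayed far past 2-fold.

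Of the other simple epithelial keratins, Krt19 and Krt20 were lower in LLC. Krt19, a short type I keratin of ducts and mesothelium, had 3249 and 2282 in AB1-HA and 1167 and 603 in LLC (vehicle, then IFN-γ, here and below). Both AB1-HA signals were above both LLC signals, and LLC was 3.22-fold lower under vehicle (−1.69 ± 0.20, log2) and 3.73-fold lower under IFN-γ. Krt20, a type I keratin of intestine and urothelium, had 1564 and 802 in AB1-HA and 3.01 and 1.73 in LLC. It was dim on both LLC arrays, and the difference was at least 258-fold under vehicle and a bound of −6.74 on the log2 scale under IFN-γ. With normexp, an alternative background correction that adds an offset of 50 to every signal, these bounds were −3.885 and −3.36 on the log2 scale. Krt7, a type II keratin of glandular and mesothelial cells, had 9.44 and 13.1 in AB1-HA and 8.97 and 10.3 in LLC. These signals lie next to the lowest marked signal of each array, and no difference of 2-fold was measurable for Krt7.

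The basal keratins Krt5 (by 1 of its 2 probes) and Krt14 were well above background in both lines and Krt15 in AB1-HA alone. Krt15, a type I keratin of basal cells and the hair follicle bulge, had 137 and 217 in AB1-HA and 5.45 and 2.05 in LLC. It was dim in LLC, which was at least 22.6-fold lower under vehicle and at least 29.0-fold lower under IFN-γ. With normexp those bounds were −1.11 and −1.75 on the log2 scale. Krt14, the type I chain of the basal pair, had 46.7 and 37.7 in AB1-HA and 26.1 and 31.7 in LLC; the lines' signals do not overlap. LLC was 2.08-fold lower in Krt14 under vehicle (−1.05), a call that ended under normexp and under cyclic loess (−0.70), and the difference under IFN-γ was −0.23, which normexp turned to 0.49. Krt5, its type II partner, had 16.1, 13.5, 15.1 and 10.1 in the same order by its chosen probe. No comparison gave a difference of 2-fold, with software errors of 0.50 to 0.63 on each log2 difference. The second Krt5 probe was dim on all 4 arrays, at 1.67 to 1.90, so every Krt5 value rests on 1 of its 2 probes.

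Among keratins of the upper layers of stratified epithelia, Krt10 (epidermis) was alike throughout, with 374 and 370 in AB1-HA and 467 and 447 in LLC by its brighter probe. Its second probe passed in AB1-HA alone, at 13.6 and 10.3 against 2.11 and 3.05, and there LLC was at least 2.25-fold lower under vehicle, so the probes of Krt10 disagree. Krt2, a type II epidermal keratin, had 42.4 and 28.9 in AB1-HA and 17.3 and 35.7 in LLC. The LLC vehicle signal was the lowest of the 4, and LLC was 2.85-fold lower under vehicle (−1.51 ± 0.35), which was −0.52 with normexp and under 2-fold with the mean over its probes. Krt9, the keratin of palm and sole skin, had 32.6 and 32.5 in AB1-HA and 19.7 and 24.3 in LLC, differences of −0.94 and −0.40.

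Krt12, the type I keratin of the cornea, had 45.5 and 9.29 in AB1-HA and 1.78 and 1.81 in LLC, both dim, by its chosen probe. Its second probe was dim on all 4 arrays, at 1.71 to 1.94, so every Krt12 value rests on 1 of its 2 probes. By the chosen probe, LLC was at least 7.52-fold lower under vehicle (−0.64 on the log2 scale with the mean over its probes) and at least 1.24-fold lower under IFN-γ. Krt13, a type I keratin of mucosal epithelia, also had probes that opposed each other between the lines, further apart than those of Krt10. Its chosen probe had 73.9 and 41.7 in AB1-HA and 150.3 and 151 in LLC, which was 1.76-fold higher under vehicle and 3.66-fold higher under IFN-γ, the latter under 2-fold with normexp. Its other probe had 1358 and 813 in AB1-HA and 19.0 and 3.01 in LLC, which was then 82.5-fold lower under vehicle and at least 109-fold lower under IFN-γ. The direction of Krt13 between the lines therefore depends on the probe, and the counts given use the chosen probe. Krt16, a wound keratin, differed by −0.58 and −0.40, with 139 and 156 in AB1-HA and 108 and 117 in LLC. Krt6b, a type II wound keratin, had 12.1 and 3.90 in AB1-HA and 9.21 and 3.30 in LLC, and passed under vehicle alone. Its second probe was dim on all 4 arrays, at 3.75 to 8.68.

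Measurable keratins of hair, root sheath and nail were mostly higher in AB1-HA under vehicle, though 17 of the 25 on the array passed on none of the 4. Krt73, a type II keratin of the inner root sheath, had 2334 and 1494 in AB1-HA and 442 and 564 in LLC, where it was 6.11-fold lower under vehicle (−2.61) and 2.62-fold lower under IFN-γ. Krt80, a type II keratin found in many epithelia, had 249.8 and 204 in AB1-HA and 37.4 and 30.6 in LLC, 7.73-fold and 6.60-fold lower. Its smallest differences over the settings tried were −1.42 and −1.07 on the log2 scale. Krt86, a hair keratin, had 103 and 66.1 in AB1-HA and 24.6 and 15.5 in LLC, 4.87-fold and 4.21-fold lower, though −0.96 (log2) under vehicle with normexp. In each of these 3 genes both AB1-HA signals were above both LLC signals. Krt42, a type I keratin of the mouse nail, had 596 and 369 in AB1-HA and 176 and 101 in LLC, 3.93-fold and 3.59-fold lower. By class it was counted among the others. Krt36, a hair keratin, had 59.4 and 32.5 in AB1-HA and 25.6 and 2.48 in LLC, 2.69-fold lower under vehicle (−0.79 on the log2 scale with normexp) and at least 4.33-fold lower under IFN-γ. Krt32, another hair keratin, passed on the AB1-HA vehicle array alone, with 13.7, 7.31, 1.65 and 1.71 on the 4 arrays, and was at least 2.25-fold lower in LLC, a bound of −0.87 with cyclic loess and −0.51 with normexp.

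Hair and gland keratins were also found on the other side. Krt81, a hair keratin, had 16.7 and 13.4 in AB1-HA and 52.7 and 47.0 in LLC, 2.73-fold higher under vehicle (1.45 ± 0.33) and 3.56-fold higher under IFN-γ (1.83 ± 0.39), which were 0.56 and 0.71 with normexp. Krt79, a type II keratin of the hair follicle duct and sebaceous gland, had 95.9 and 117 in AB1-HA and 223 and 147 in LLC. Its difference lay at the threshold under vehicle (1.01 ± 0.21), was 0.96 with quantile normalization and 0.59 with normexp, and was 0.35 under IFN-γ. The hair keratin Krt31 (90.9 and 88.6 in AB1-HA, 67.7 and 68.3 in LLC) and the keratin-like Krt222 (980.3 and 1039 in AB1-HA, 1011 and 1088 in LLC) differed by less than 2-fold in each comparison. The second probe of Krt222 was dim on all 4 arrays, at 1.75 to 1.99. Krt14, Krt16, Krt17 and Krt42 resemble each other closely, as do Krt6a and Krt6b and the hair keratins among themselves; how well each probe tells them apart was not tested.

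**Figure D2:**
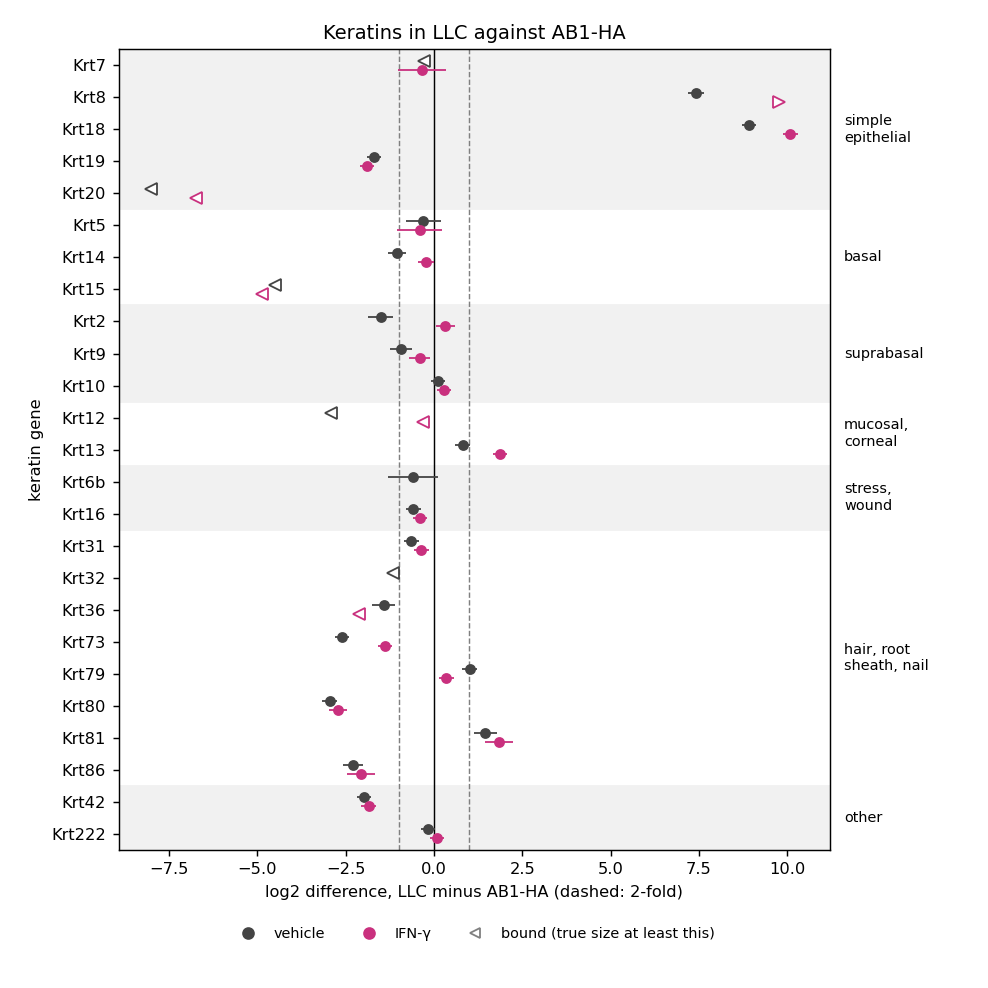
Difference between the lines (log2, LLC minus AB1-HA) under vehicle and under IFN-γ for each measurable keratin; bars are the scanner software's error and open triangles are bounds. Krt8 and Krt18 stand at 7.43 and 8.92 under vehicle, while most other keratins lie left of 0, down to the bound of −8.01 for Krt20.

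Keratin genes lie in 2 clusters, and the lines differed in different places along them. The type I cluster on chromosome 11 has 27 genes, of which 14 were well above background on at least 1 array. The type II cluster on chromosome 15, which also holds Krt18, has 27 genes, 26 on the array and 11 well above background on at least 1. On chromosome 15, Krt8 and Krt18 are the last neighbours of the cluster and were both higher in LLC, while Krt79 and Krt78 are the genes before them; Krt79 was near 2-fold higher in LLC under vehicle and Krt78 was dim. On chromosome 11, Krt12 and Krt20 are neighbours and both passed in AB1-HA alone, between Krt10, which was alike in both lines by its brighter probe, and Krt23, which was dim. Krt15 and Krt19, also neighbours there, were both higher in AB1-HA.

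**Figure D3:**
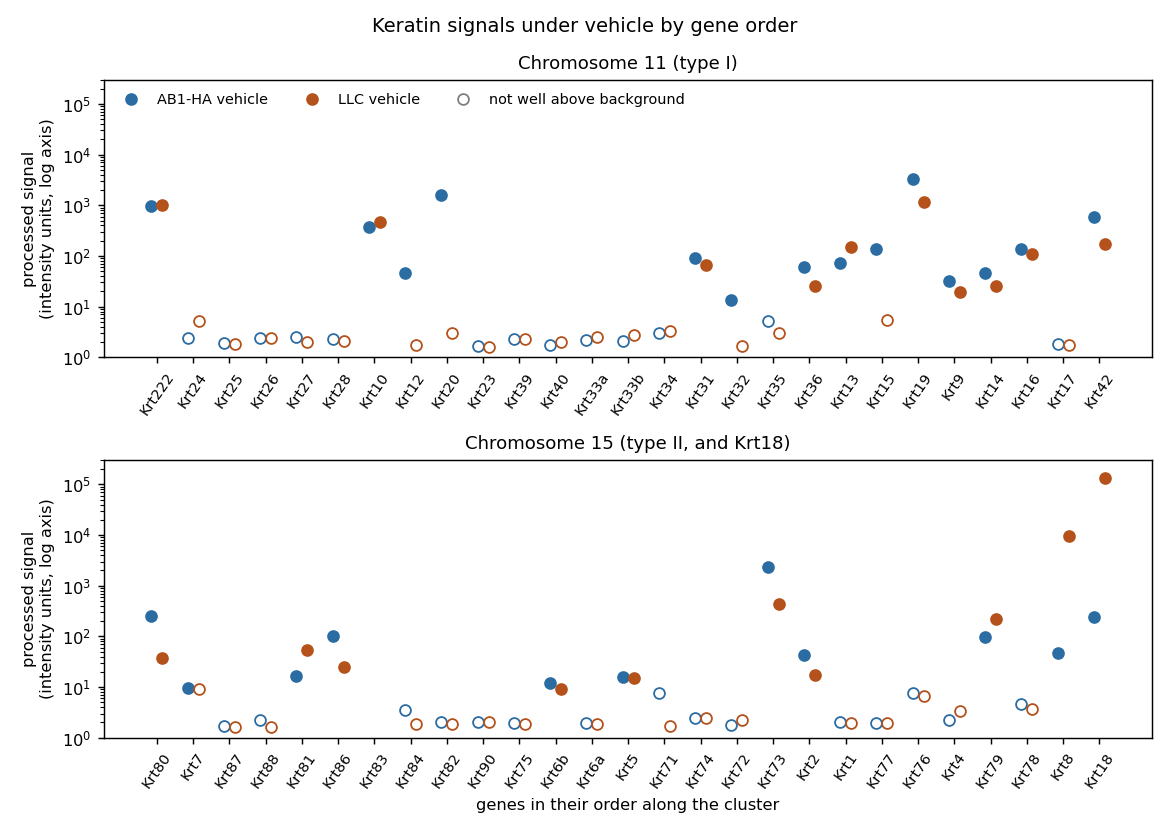
Processed signal under vehicle (intensity units, log axis) of each keratin in its gene order along the chromosome 11 and chromosome 15 clusters, 1 point per line; open points are not well above background, and the space at Krt83 is a gene with no probe. Krt8 and Krt18 at the end of chromosome 15 are higher in LLC, and the neighbours Krt12 and Krt20 on chromosome 11 are filled in AB1-HA only.

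In AB1-HA, most measurable keratins were lower after IFN-γ, among them the simple epithelial Krt8 and Krt18 by 2-fold or more and Krt20 at that threshold. Of the 25 that could be compared, 4 were lower by 2-fold or more, where 1.17% of all 13208 named genes with a value were, and 0 were at least 2-fold higher, where 2.98% of all genes were. The 4 were Krt8, Krt12, Krt18 and Krt20. Of the 25, 20 (80.0%) lay below 0 against 63.6% of all genes, and the median was −0.55 against −0.08; over the 22 keratins measured on both arrays it was −0.35. With normexp, 16 of 24 lay below 0 and the median was −0.24. Of these, 3 of the 25 values are bounds of genes that passed under vehicle alone, and these had to lie below 0.

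In LLC, keratins did not share a direction after IFN-γ. Of the 21 that could be compared, 1 (Krt2) was higher by 2-fold or more, where 3.68% of all 13411 genes were, and 1 was at least 2-fold lower (Krt36), where 1.46% of all genes were. Of these, 10 lay below 0 and 11 above, with a median of 0.03 against −0.06 over all genes. Scaling to the array median moved the median of all genes in LLC by −0.14, and the keratin median then was −0.12.

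Krt18 went from 239 to 85.9 in AB1-HA, 2.86-fold lower (−1.52 ± 0.21), and from 134098 to 92309.6 in LLC, 1.27-fold lower (−0.35 ± 0.20). Krt8 went from 47.5 to a dim 7.0 in AB1-HA, at least 6.49-fold lower, and from 9469 to 6532 in LLC, also 1.27-fold lower (−0.35 ± 0.20). Both chains of the pair were thus lower in both lines, past 2-fold in AB1-HA alone, and their LLC differences ranged from −0.49 to −0.35 over the settings tried. With normexp, which adds an offset of 50 to every signal, the AB1-HA differences were −0.81 for Krt18 and −0.70 for Krt8, under 2-fold.

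Krt20 went from 1564 to 802 in AB1-HA, a difference that lies on the threshold (2.01-fold; software error 0.20 on the log2 scale) and was −0.94 on that scale with cyclic loess. Krt12, its neighbour, went from 45.5 to 9.29, 5.04-fold lower (−2.33 ± 0.53), with the second signal near the lowest marked one, and −0.39 with normexp. This is by the chosen probe alone, since the other Krt12 probe was dim. In LLC neither gene could be compared, since both were dim. Krt19 was lower in both lines, from 3249 to 2282 in AB1-HA (−0.55 ± 0.20) and from 1167 to 603 in LLC (−0.76 ± 0.20), in LLC by more than Krt8 and Krt18. Krt7 did not show a difference beyond its error in AB1-HA (0.43 ± 0.71).

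Smaller differences in AB1-HA pointed down for Krt36 (−0.91), Krt13 (−0.87 by the chosen probe and −0.78 by the other), Krt42 (−0.73), Krt73 (−0.68), Krt86 (−0.68) and Krt2 (−0.60, turned to 0.18 with normexp). Krt32 and Krt6b passed under vehicle alone, with bounds of 1.86-fold and 1.65-fold. Krt15 was the keratin with the largest difference upward in AB1-HA, from 137 to 217, 1.54-fold (0.63 ± 0.21). Krt5 (−0.29), Krt14 (−0.35), Krt80 (−0.33), Krt81 (−0.36), Krt79 (0.24) and Krt16 (0.13) differed less. Krt9, Krt10, Krt31 and Krt222 lay within 0.08 of 0.

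In LLC, Krt2 went from 17.3 to 35.7, 2.36-fold higher (1.24 ± 0.36), but its difference was 0.37 with normexp and under 2-fold with the mean over its probes, of which the second was dim. Krt36 went from 25.6 to a dim 2.48, at least 3.03-fold lower, but under 2-fold with normexp and with the mean over its probes (−0.18); its other probe was dim on both LLC arrays. Krt42 was 1.52-fold lower, from 176 to 101, close to its 1.66-fold in AB1-HA. Krt73 (0.54), Krt9 (0.49), Krt14 (0.47), Krt16 (0.31), Krt222 (0.30) and Krt31 (0.20) lay above 0, and Krt86 (−0.47), Krt79 (−0.42) and Krt5 (−0.38) below it. By its other probe, Krt13 was at least 2.26-fold lower in LLC after IFN-γ, while the chosen probe gave 0.19.

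**Figure D4:**
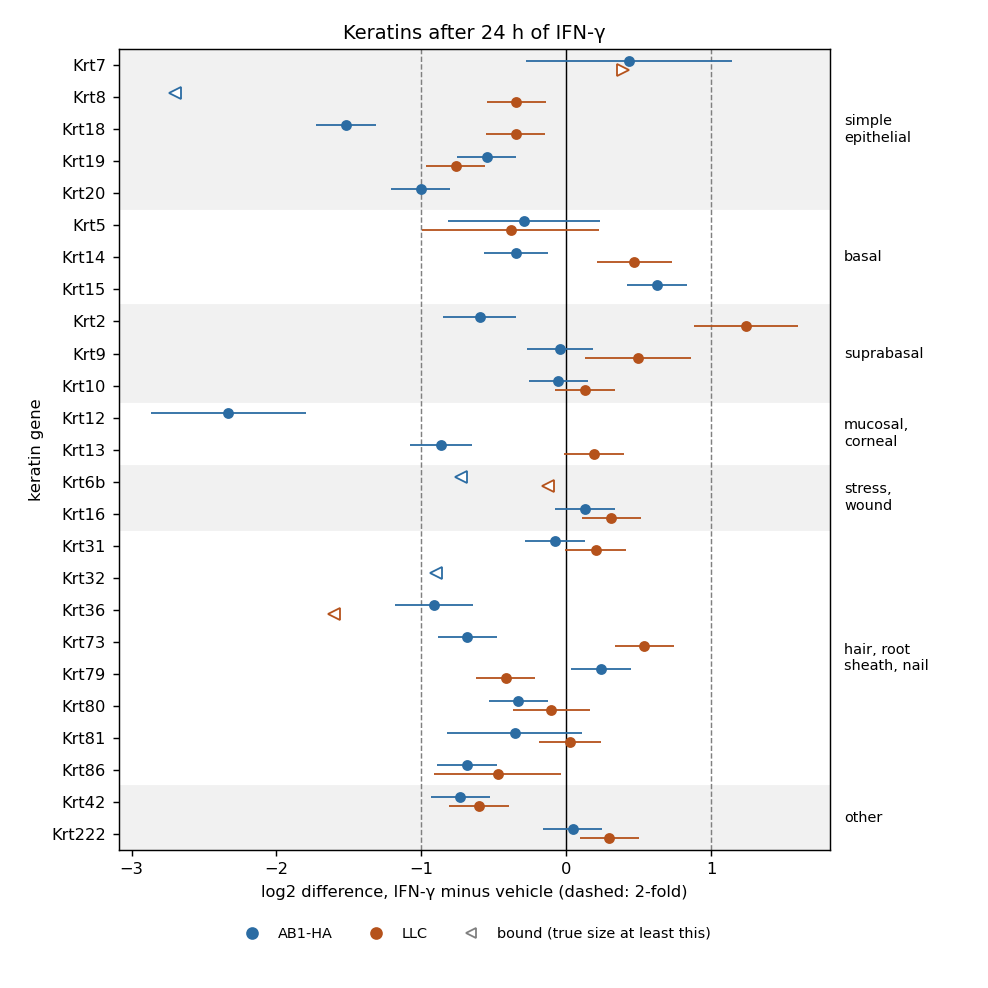
Difference after 24 h of IFN-γ (log2, IFN-γ minus vehicle) for each measurable keratin in AB1-HA and in LLC; bars are the scanner software's error and open triangles are bounds. In AB1-HA, Krt8, Krt12, Krt18 and Krt20 reach or pass the dashed 2-fold line on the left, while in LLC Krt2 lies to the right of the other line.

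The 17 keratins well above background on all 4 arrays allow the effect of IFN-γ to be set side by side in the lines. The difference of effects, LLC minus AB1-HA, was below 0 for 3 of the 17 and for 46.2% of all genes, with a median of 0.25 against 0.03 over all genes; the keratin median was 0.11 with the array median and 0.079 with cyclic loess. Of these, 4 keratins differed by at least 2-fold toward LLC: Krt2 (1.83), Krt73 (1.22), Krt18 (1.17) and Krt13 (1.06, by the chosen probe), where 2.54% of all 11985 genes did. None did toward AB1-HA, where 1.69% of all genes did. Krt73 stayed past 2-fold in every setting tried (lowest 1.08). Normexp took Krt2 to 0.19 and Krt18 to 0.40, and Krt13 was under 2-fold with the array median (0.92), quantile (0.98), cyclic loess (0.85) and normexp (0.75), and was −0.32 with the mean over its probes. For Krt18 the difference was of size, lower in both lines, whereas Krt2 and Krt73 were lower in AB1-HA and higher in LLC. Krt13 was lower in AB1-HA, and its LLC difference (0.19 ± 0.21, chosen probe) lay within the software error. Krt79 (−0.66), Krt19 (−0.21) and Krt5 (−0.09) were the 3 below 0. These differences were not tested.

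Keratin filaments are tied to the cell by plakins and desmosomal plaque proteins. Of 15 such anchors and linkers, 13 had a value after IFN-γ in AB1-HA and 12 in LLC, with medians of −0.17 and −0.22. None was past 2-fold with IFN-γ. Few genes were: of all genes, 2.98% were higher and 1.17% lower in AB1-HA, and 3.68% and 1.46% in LLC. A count of 0 in so small a set lies near those shares. Desmoplakin (Dsp), which fastens keratins to desmosomes, was dim on all 4 arrays, at 1.78 to 2.02. Between the lines under vehicle, 5 of 13 were at least 2-fold higher in LLC and 1 lower, where 16.4% and 16.0% of all genes were. The plakin periplakin (Ppl) had 5.76 in AB1-HA and 327 in LLC, at least 34.2-fold higher, and plakophilin 2 (Pkp2) had 1456 and 14300.3, 8.49-fold higher. The linker plectin (Plec) had 22033 and 58965, 2.31-fold higher, and Pkp1 was at least 4.28-fold lower. Under IFN-γ, 5 of 14 were higher in LLC and 2 lower, where 15.4% and 13.3% of all genes were.

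RNA of other intermediate filament genes was measured beside the keratins. Vimentin (Vim), the filament of mesenchymal cells, was alike throughout, at 157625 and 148128 in AB1-HA and 164295 and 161989 in LLC. Of 16 such genes, 1 of 9 with a value was at least 2-fold lower after IFN-γ in AB1-HA, where 1.17% of all genes were. It was the neurofilament light chain Nefl, from 191 to 71.9 (−1.45). In LLC 2 of 12 were lower, where 1.46% of all genes were: Synm and Bfsp2, both as bounds (at least 2.46-fold and 2.01-fold). Between the lines under vehicle, 5 of 13 were higher in LLC and 3 lower, where 16.4% and 16.0% of all genes were. Nefl was 13.5-fold higher (2988 in LLC), Nefm at least 72.9-fold, Prph at least 44.2-fold and nestin (Nes) 5.84-fold. Under IFN-γ, 4 of 11 were higher and 2 lower, where 15.4% and 13.3% of all genes were.

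Among 17 transcription regulators of epithelia, 0 were past 2-fold with IFN-γ in AB1-HA (6 with a value, median −0.04) and in LLC (11 with a value, median −0.37). With so few values, that too lies near the shares of all genes called after IFN-γ. Under vehicle, 6 of 11 were at least 2-fold higher in LLC and 2 lower, where 16.4% and 16.0% of all genes were. Foxa2, a regulator of lung and gut endoderm, had 1.96 in AB1-HA and 8151 in LLC (at least 852-fold), and Tfap2c (at least 47.5-fold), Cdx2 (at least 32.1-fold), Foxa1 (at least 10.2-fold), Elf3 (at least 4.15-fold) and Tfap2a (4.03-fold, measured on both arrays) were the other 5. The 2 lower ones were Klf5 and Klf4: Klf5 had 4410.4 in AB1-HA and 875 in LLC (5.84-fold lower), and Klf4 was 2.18-fold lower. Trp63, which maintains basal cells, had 3299 and 1992 (−0.94), under 2-fold. Grhl2, an epithelial regulator, had 2.87 in AB1-HA and 17.2 in LLC, at least 1.80-fold higher. Klf5 was lower after IFN-γ in AB1-HA (4410.4 to 2456; −0.88) and not in LLC (875 to 990.5; 0.37). Under IFN-γ, 6 of 12 were higher in LLC and 1 lower, where 15.4% and 13.3% of all genes were.

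The 6 repressors of epithelial genes were all measurable, with medians of −0.20 and −0.13 after IFN-γ. None was past 2-fold with IFN-γ in either line, which for 6 genes also lies near the shares of all genes. Zeb1 had 1523 and 1419 in AB1-HA and 2623 and 2112 in LLC. Of the 6, Snai2 (3.09-fold) and Snai1 (2.15-fold) were higher in LLC under vehicle, where 16.4% of all genes were. Of 14 genes of the cornified envelope on the array, Tgm3, Sprr1a and Cdsn alone passed on any array, and involucrin, loricrin and Tgm1, which mark terminal differentiation of epidermis, were dim on all 4.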

How the data were processed

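Total RNA of the 4 cultures was labelled with Cy3, per the labels' protocols, and hybridised to 1 single-colour array per group. The authors deposited the scanner's intensity values. Background had been subtracted from every spot with Feature Extraction 10.7.1.1 from Agilent, per the file headers, which also wrote each spot's error and its background and outlier marks; signals were not normalized between arrays. The log2 values of the authors' deposited table matched log2 signals scaled to the 75th percentile and centred per probe (r of 0.999998 or more over 39313 probes, with column medians from −0.13 to 0.11), and no source used here states how that table was made.

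Control spots and 166 to 201 spots per array with outlier marks were left out, and no probe was saturated. Log2 processed signals were set relative to the 75th percentile of each array's gene probes, with repeat spots taken as their mean. The background mark was required on at least 0.5 of a probe's kept spots. Accessions were matched to a RefSeq table of GRCm38.p6, used for names and gene order only, since the arrays are annotated on another build; this named 26575 of 39419 probes. Each gene was taken by its probe of highest mean over the 4 arrays. Bounds were set against the higher of the dim probe's signal and the lowest marked signal of that array. Every keratin well above background on at least 1 array is named, and of other lists those with the largest differences and a few fixed genes. The keratins, their classes and the other lists were chosen with earlier results of these data known; 1 leukocyte marker is not reported here. Alternatives covered the array median, cyclic loess, quantile normalization, normexp with an offset of 50, the authors' table, genes measured on both arrays, no background filter, the mean over probes, outlier spots kept, a 1.5-fold size, and the other Krt13 probe. The calculation was tested on simulated data. Python 3.11.15 and limma 3.58.1 in R 4.3.3 were used. Precision is limited by the number of arrays, 1 per group.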

Additional observations from a re-analysis of the deposited data

Results flagged for a closer look

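In 3 keratins measured on all 4 arrays, the IFN-γ effects of the lines had opposite signs, and their difference, LLC minus AB1-HA, was not tested. It was 1.83 on the log2 scale for Krt2 (−0.60 in AB1-HA, 1.24 in LLC), though normexp gave 0.18 and 0.37, both upward. It was 1.22 for Krt73 (−0.68 and 0.54). It was 1.06 for Krt13 by its chosen probe (−0.87 and 0.19). There the LLC value lay within its software error (0.21) and was 0.05 to 0.10 with the other scalings. The other Krt13 probe was lower in both lines (−0.78, and at least 2.26-fold lower).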

How the results depend on the processing

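A count was taken to hold within 1.5 times its value, and a difference or median within the median repeat-spot SD of its comparison (0.04 to 0.07, log2). By that, of 98 recomputed counts and medians 76 held, 22 moved and 0 reversed. Of 830 recomputed keratin differences, 546 held, 282 moved and 2 reversed. A keratin difference counted as reversed only if its sign turned and it was 2-fold or more in the setting used. Sign turns of smaller differences are therefore among those that moved. Examples between the lines under vehicle, with the mean over probes, were Krt10 (0.11 to −1.40) and Krt13 (0.81 to −2.78). With normexp, the keratins past 2-fold after IFN-γ numbered 0 lower in AB1-HA (4 in the setting used), and 0 higher and 0 lower in LLC (1 and 1). Between the lines, 2 were higher and 7 lower under vehicle (4 and 12) and 2 higher under IFN-γ (4). Calls fell over all genes too. Those lower after IFN-γ went from 154 to 20 in AB1-HA and from 196 to 21 in LLC, and those higher in LLC from 494 to 254. Between the lines under vehicle, all genes higher went from 2275 to 1494 and lower from 2216 to 1410. Without the background filter, 1 was higher and 8 lower after IFN-γ in AB1-HA, 4 were lower in LLC, and 13 were lower in LLC than in AB1-HA under IFN-γ. Of all genes, 722 of 20105 were then higher and 588 lower in AB1-HA. In LLC 487 of 20086 were lower, and between the lines under IFN-γ 2365 of 20091. At 1.5-fold, 1 was higher and 12 lower in AB1-HA and 3 lower in LLC, and the share of all genes at that size was not taken. Over genes measured on both arrays, 0 were lower after IFN-γ in LLC, and 5 were lower between the lines under IFN-γ (8). The authors' table gave 2 lower in LLC, the mean over probes 0 higher there, and the other Krt13 probe, an alternative chosen after seeing the data, 2 lower. The median difference of effects, 0.25, was 0.11 with the array median, 0.16 with quantile, 0.079 with cyclic loess and 0.38 without the filter. Krt13 between the lines under IFN-γ reversed from 1.87 to −3.09 with the mean over probes and to −6.76 with its other probe, where the alternative itself sets the probe; the cause of the other moves was not tested, except that the filter and the fold size set how many genes are counted.

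Among all called genes in LLC, 71.6% were higher after IFN-γ, and 55.5% with the array median, 60.0% with quantile, 55.7% with cyclic loess and 92.4% with normexp; in AB1-HA 71.9%, against 92.9% with normexp and 55.1% without the filter. Other scalings moved the all-gene median by −0.14 (array median, LLC after IFN-γ), −0.13 (array median, lines under IFN-γ) and 0.15 (cyclic loess, lines under vehicle). No paired analysis was possible because each group has 1 array. Signal over background limits the dim keratins: Krt5, Krt6b, Krt7, Krt12 and Krt32 had values near the lowest marked signal on at least 1 array.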
